A study of Mus musculus with 7 samples.

Results

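Of the 6 miRNA names miR-122-5p, miR-122-3p, miR-192-5p, miR-194-5p, miR-215-5p and miR-375-3p, chosen as miRNAs that are abundant in liver, gut or hormone-secreting cells, 5 had a row among the 640 mouse miRNAs of the count table. miR-122-3p had no row. The 7 libraries held small RNA bound to Argonaute 2 (Ago2), the protein that carries most miRNAs in the silencing complex, immunoprecipitated from the plasma of c57 mice (C57BL/6JOlaHsd per the study's methods). Mice received kainic acid in the amygdala, which led to status epilepticus (SE, a prolonged seizure), or phosphate-buffered saline (PBS) as control. There was 1 library each at 4 h, 8 h and 24 h after SE and after PBS, and 1 at 2 weeks after SE, when spontaneous seizures are usual in this model. Per the study's methods the mice were adult males, each library was a pool of 10 mice, and a benzodiazepine was given some time after kainic acid. The effects of kainic acid, of the seizures and of that drug cannot be told apart in these groups. The 24 h control also served the 2-week library, because per the study's methods the 2-week control library did not pass quality control. The 24 h and 2-week comparisons therefore share a control. In the 2-week comparison SE and the time since injection cannot be told apart. With 1 pool per group there was no replicate check, and each difference between 2 libraries compares those libraries, not the conditions.

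As background, a miRNA is cut from a hairpin precursor, and 1 arm, named 5p or 3p, is usually kept in Ago2, where bases 2 to 8 (the seed) pair with target mRNAs. miR-122-5p is the dominant miRNA of hepatocytes and a known plasma marker of liver injury. miR-192-5p, miR-194-5p and miR-215-5p are abundant in gut epithelium, with miR-192-5p and miR-194-5p also found in liver and kidney, and miR-375-3p is known from pancreatic islets and other endocrine and gut epithelial cells. Plasma holds miRNAs from many sources at once, and in such bulk samples fewer contributing cells and less miRNA per cell cannot be told apart.

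The sequences are shown because the most abundant members are close relatives whose reads behaved differently. They are from RefSeq (GRCm38.p6), written 5′ to 3′ with the seed in capitals; 3 of the 5 members present had an entry and were matched by name.

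miR-192-5p: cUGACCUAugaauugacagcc
miR-215-5p: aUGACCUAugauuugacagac
miR-194-5p: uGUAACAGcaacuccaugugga

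miR-192-5p and miR-215-5p shared the seed UGACCUA, which these 2 alone carried among the mature miRNAs listed. Over their 21 bases they were the same at 18 and differed at 3, namely C1A, A12U and C20A (base of miR-192-5p, position counted from the 5′ end, base of miR-215-5p). The authors' alignment allowed up to 2 mismatches, so that a read with errors or a shortened end could be placed on the other miRNA, and the split of reads between them is uncertain to that extent.

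The hairpins lie in 2 pairs. Mir192 is at chr19:6264844-6264932 on the plus strand, 115 bases after Mir194-2 at chr19:6264643-6264728, and neither overlapped another annotated gene. Mir215 is at chr1:185313581-185313692 on the plus strand, 195 bases after Mir194-1 at chr1:185313319-185313385. Both lie inside Iars2, a protein-coding gene on the opposite strand, without overlapping its exons. They also lie in the antisense RNA 2010103J01Rik, where Mir215 overlaps an exon and Mir194-1 an intron. Mature miR-194-5p is the same from either pair, so its reads have 2 possible origins (chr1:185313325-185313346 and chr19:6264658-6264679).

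Library totals ran from 2043220 to 5405357 reads assigned to miRNAs, and 232 to 399 miRNAs had a read. The red blood cell miRNA miR-486b-5p took 62.5% to 76.1% of the reads of each library. Levels are given as CPM (each count divided by its library size and multiplied by 1000000) on library sizes scaled by the trimmed mean of M-values (TMM), whose factors ran from 0.754 (SE 24 h) to 1.22 (control 8 h). The 4 h control stood apart, with the fewest miRNAs and reads. The summed level of 6 red blood cell markers was 556444 to 895650 CPM in control and 524618 to 1014560 CPM in SE libraries. Nearly all of this sum was miR-486b-5p, at 552303 to 891856 CPM in control and 520595 to 1008830 CPM in SE libraries. Over all libraries miR-451a stood at 1.72 to 20.5 CPM and miR-144-3p at 0 to 414 CPM. The part of these markers in the results was not tested.

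miR-192-5p was abundant in every library and, on TMM library sizes, higher in the 3 acute SE libraries (4 h, 8 h and 24 h) than in any control; on plain CPM the groups overlapped. Its level was 12050, 13410 and 14443 CPM in the controls (4 h, then 8 h, then 24 h). It was 20720, 22428 and 20670 CPM in SE at the same times and 15230 CPM at 2 weeks. The acute SE libraries were close together and did not overlap the controls, whereas the 2-week library lay just above the highest control. Behind these levels were 20997 to 57827 reads per control and 47017 to 88224 per SE library. By mean level over the 7 libraries it ranked 5 of 640, at 16993 CPM, between miR-143-3p (17918 CPM) and miR-22-3p (16400 CPM), with let-7f-5p (22901 CPM) above and miR-191-5p (12937 CPM) below. Those gaps to miR-143-3p and miR-22-3p were smaller than its own SD of 4160 CPM over the libraries.

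**Figure D1:**
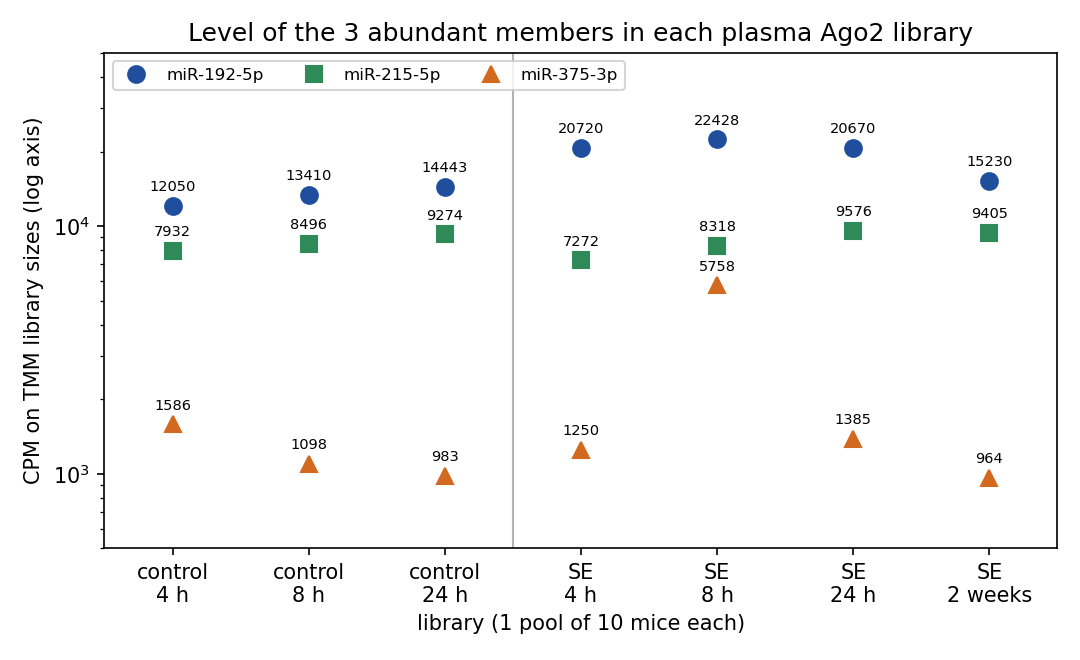
Level of miR-192-5p, miR-215-5p and miR-375-3p (CPM on TMM library sizes, log axis) in each of 7 plasma Ago2 libraries, 1 point per pool. miR-192-5p sits at 20670 to 22428 CPM in the acute SE libraries, above the controls at 12050 to 14443 CPM, while miR-215-5p stays between 7272 and 9576 CPM and miR-375-3p is high in SE 8 h alone among these libraries.

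Against the control of its own time-point, miR-192-5p was higher by 0.78 on the log2 scale at 4 h (1.72-fold), by 0.74 (1.67-fold) in the 8 h pair and by 0.52 (1.43-fold) after 24 h, and by 0.077 for the 2-week library. A call here is at least 1.5-fold with an exact test (edgeR) below 0.05 at a biological coefficient of variation (BCV) set to 0.1, for miRNAs with 50 CPM or more in either library. The 4 h and 8 h differences were called, and those at 24 h and 2 weeks were not. Calls were common, at 67.2%, 50%, 44.7% and 31.7% of the miRNAs tested in the 4 comparisons in order of time, and by size miR-192-5p ranked 113 of 189 at 4 h and 65 of 154 at 8 h. At 4 h the call was lost against the 8 h and 24 h controls together (log2 0.57). With a BCV of 0.4, or with library sizes that leave out miR-486b-5p (log2 0.23 and 0.45), neither difference was called. Of the 3 members tested at each time, 1 was called at 4 h, 2 at 8 h and 0 at the later times.

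Controls compared with each other gave the same size of background. The share of miRNAs called was 59.3% for control 8 h against 4 h, 69.6% for 24 h against 4 h and 45.4% for 24 h against 8 h. Within these pairs miR-192-5p differed by 0.15, 0.26 and 0.11 on the log2 scale and was not called. On this scale each acute SE difference of miR-192-5p was larger than any of its differences between controls. On plain CPM, without TMM scaling, the 24 h difference turned to -0.10 (15589 CPM in SE, 16700 CPM in control). TMM scaling moved every SE value against its control by 0.11, 0.087 and 0.62 on the log2 scale in the acute pairs in order of time, and by -0.071 at 2 weeks. On plain CPM the controls themselves differed by 0.67 and 0.70 for 8 h and 24 h against 4 h, as much as the SE difference of 0.67 at 4 h.

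**Figure D2:**
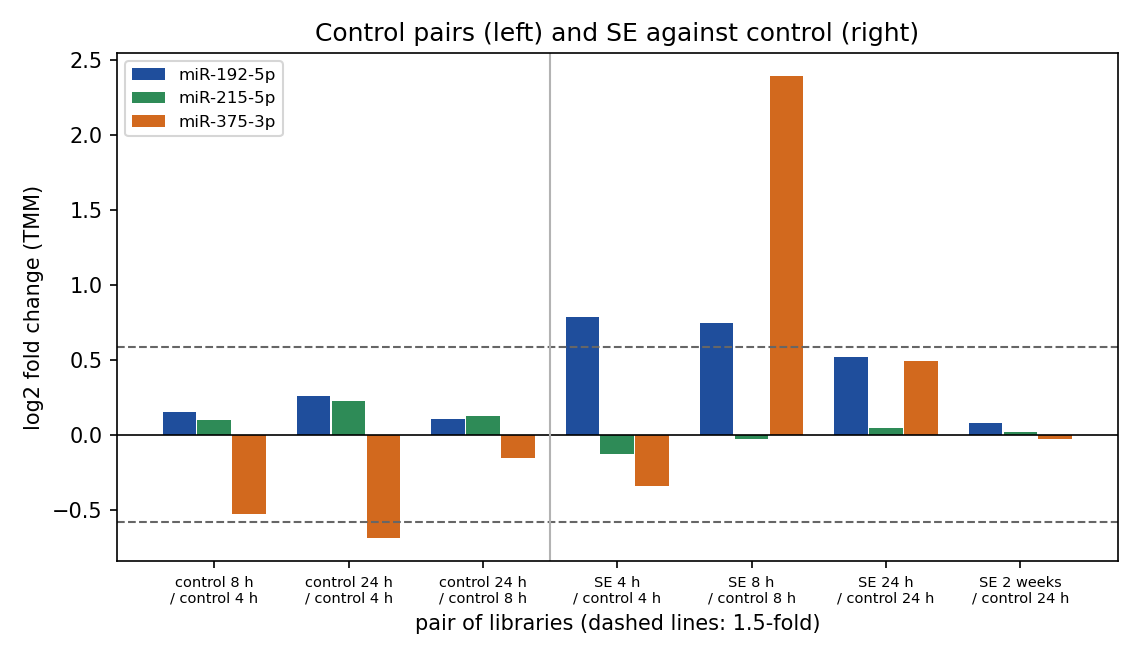
Log2 fold change (TMM) of the 3 abundant members for 3 pairs of control libraries (left) and 4 pairs of SE and control libraries (right), with dashed lines at 1.5-fold. miR-192-5p differs by 0.78, 0.74 and 0.52 in the acute SE pairs and by at most 0.26 between controls, and the bar of miR-375-3p at 8 h reaches 2.39.

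Taking the 3 acute SE libraries against the 3 controls as if they were replicates, although their time-points differ, miR-192-5p was higher by 0.68 on the log2 scale (standard error 0.208, higher in 3 of 3 pairs). In edgeR's quasi-likelihood test the unadjusted p was 0.0112 and the Benjamini-Hochberg adjusted p was 0.307, so that it did not pass. None of the 137 miRNAs tested passed in that fit (0% called), 17 had an unadjusted p below 0.05, and DESeq2 gave 4 adjusted calls, none of them a member. In the exact two-sided permutation test the difference in mean log2 level was 0.56 with p = 0.0571 for all 4 SE against 3 control libraries, where the smallest p possible is 0.0286. For 3 against 3 the exact p was 0.1, the smallest that design allows. Of the 137 miRNAs, 16.8% did not overlap between acute SE and control libraries.

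miR-215-5p, the relative with the same seed, did not share this pattern. Its level was 7932, 8496 and 9274 CPM in the controls (4 h, then 8 h, then 24 h). It was 7272, 8318 and 9576 CPM in acute SE and 9405 CPM at 2 weeks. SE and control libraries overlapped throughout. The log2 differences from the 4 h to the 2-week comparison were -0.13, -0.030, 0.046 and 0.020, none called, and that of 3 acute SE against 3 controls was -0.030 (standard error 0.215; quasi-likelihood adjusted p = 0.955 in edgeR). The direction depended on scaling, with -0.57 at 24 h on plain CPM (not called) and -0.68 at 4 h on library sizes that leave out miR-486b-5p (called). Between controls it differed by 0.099 to 0.23. Over the 7 libraries its levels spanned 1.32-fold, against 1.86-fold for miR-192-5p.

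The ratio of miR-192-5p to miR-215-5p reads within a library needs no scaling between libraries and was chosen after the data were seen. It was 1.52, 1.58 and 1.56 in the controls (4 h, then 8 h, then 24 h). It was 2.85, 2.70 and 2.16 in SE at those times and 1.62 at 2 weeks. The counting intervals (95%) were narrow, at 1.49-1.55 for the 4 h control and 2.81-2.89 for the 4 h SE library, and cover counting error only, since reads without molecular identifiers are not independent molecules. The 3 controls had an SD of 0.028 on the log2 scale, each acute SE library was above them, and the 2-week library was above the highest control by less than any acute library.

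**Figure D3:**
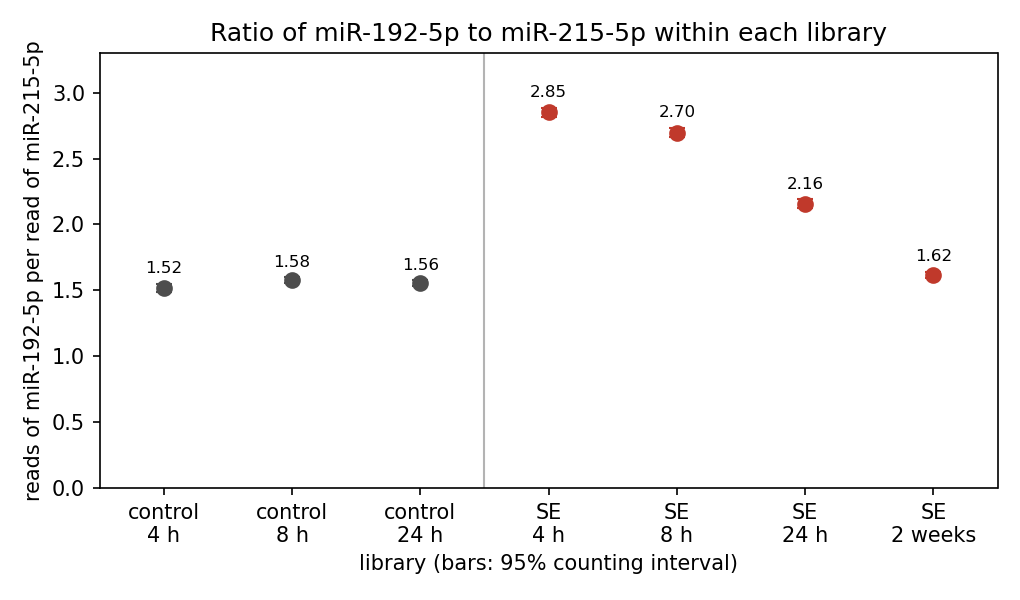
Reads of miR-192-5p per read of miR-215-5p in each library, with 95% counting intervals; grey points are controls and red points SE libraries. Controls lie at 1.52 to 1.58, acute SE libraries at 2.16 to 2.85 and the 2-week library at 1.62.

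Within time-points the ratio was 1.88-fold (4 h), 1.71-fold (8 h) and 1.39-fold (24 h) higher after SE. Over 3 against 3 libraries the difference was 0.72 on the log2 scale (1.64-fold; exact permutation p = 0.1, the smallest possible) and over 4 against 3 it was 0.55 (exact permutation p = 0.0571). Among all 5151 pairs of the 102 miRNAs with 50 CPM or more in every library, 19.8% also did not overlap between acute SE and control libraries, and 16.3% did not overlap and differed by at least as much. A smaller SD among controls was seen in 8 pairs (0.155%), the median over pairs being 0.57. The separation of the ratio was thus common among pairs. Closeness of the controls was rarer, but this pair was chosen after the data were seen. The pairs also include far scarcer miRNAs, and no share matched for abundance was computed.

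Against the 101 other miRNAs, the ratio of miR-192-5p to another miRNA was higher without overlap in acute SE for 37 and lower for 3, together 39.6%, where the median miRNA of the 102 had 14.9%; miR-192-5p ranked 11 of 102. For miR-215-5p the ratio was higher without overlap for 9 and lower for 7 (15.8%). For miR-375-3p it was higher for 10 and lower for 0 (9.9%). In order of time, the ratio of miR-192-5p was higher in SE than in its control for 73, 85, 78 and 60 of 101 others. At 24 h the ratio of miR-375-3p was higher for 77 and that of miR-215-5p for 54. The 24 h count was thus not particular to miR-192-5p.

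miR-375-3p was high in 1 library. Its level was 1586, 1098 and 983 CPM in the controls (4 h, then 8 h, then 24 h). It was 1250, 5758 and 1385 CPM in SE at those times and 964 CPM at 2 weeks. The 8 h SE library stood above all the others and the remaining 3 SE libraries overlapped the controls.

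At 8 h miR-375-3p was 2.39 higher on the log2 scale (5.25-fold, 20970 reads against 4733) and was called, ranking 16 of 154 by size. Its ratio to each of the 101 other miRNAs was higher in SE than in control at 8 h. Its other log2 differences, -0.34 (4 h), 0.49 (24 h) and -0.029 (2 weeks), were not called; the first was called, at -0.90, on library sizes that leave out miR-486b-5p, and the 24 h value turned to -0.12 on plain CPM. Between controls it was called once, for 24 h against 4 h (-0.69). Over 3 against 3 libraries the difference was 1.19 (standard error 0.583; quasi-likelihood adjusted p = 0.518 in edgeR), and without the 8 h SE library it was 0.11. Per read of miR-215-5p, miR-375-3p stood at 0.692 in the 8 h SE library and at 0.103 to 0.200 in the other 6 libraries.

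miR-194-5p, whose hairpins lie beside those of miR-192-5p and miR-215-5p, was scarce. It had 0, 0 and 45 reads in the controls (4 h, then 8 h, then 24 h). It had 154, 139 and 106 reads in SE at those times and 0 at 2 weeks. It was present in each acute SE library at 36.2 to 38.2 CPM and in 1 of 3 controls at 11.4 CPM, so the groups did not overlap (exact permutation p = 0.1 for 3 against 3, the smallest possible). It never reached 50 CPM and was not part of the tests across miRNAs. The 16.8% of 137 miRNAs without overlap is a share among more abundant miRNAs. No share was computed at this count level, and nothing particular to miR-194-5p is read from its lack of overlap.

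With a count of 0 set to 3 reads, miR-194-5p was 21.0-fold higher in SE at 4 h and 54.9-fold higher at 8 h. At 24 h the ratio was 3.31, and at 2 weeks the level was 11.7-fold lower than the 24 h control by the same setting. Per read of miR-192-5p it was 0.175%, 0.170% and 0.183% in the acute SE libraries in order of time, and 0.0790% in the 24 h control. The most common low count was 33.1 to 102 reads, depending on the library. The search for it left out the lowest counts, at which 22 to 42 miRNAs per library lay. The folds above depend on the 3-read setting and are not firm lower bounds, since a 0 may stand for more than 3 reads. miR-194-5p stood at 4.1, 2.7 and 2.3 times the most common low count in acute SE and at 0.8 times in the 24 h control. The part of such low counts in the difference was not tested.

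miR-122-5p, the liver marker of the set, was near the limit of detection. It had 0 reads in all 3 controls, and the 4 SE libraries, in order of time, had 59, 0, 1 and 55 reads. The highest level was 17.8 CPM, and SE and control libraries overlapped at 0. With a count of 0 set to 3 reads, the 4 h SE library was 8.05-fold and the 2-week library 23.4-fold above its control. These folds, too, are not firm lower bounds. In these 2 libraries the count was 1.6 and 1.7 times the most common low count. The 3-read setting puts a count of 0 at 1.72 CPM in the 4 h control and at 0.824 CPM in the 8 h SE library. The defining miRNA of hepatocytes was therefore at or near 0 in all 7 libraries, and the set is called here by the names of its miRNAs.

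**Figure D4:**
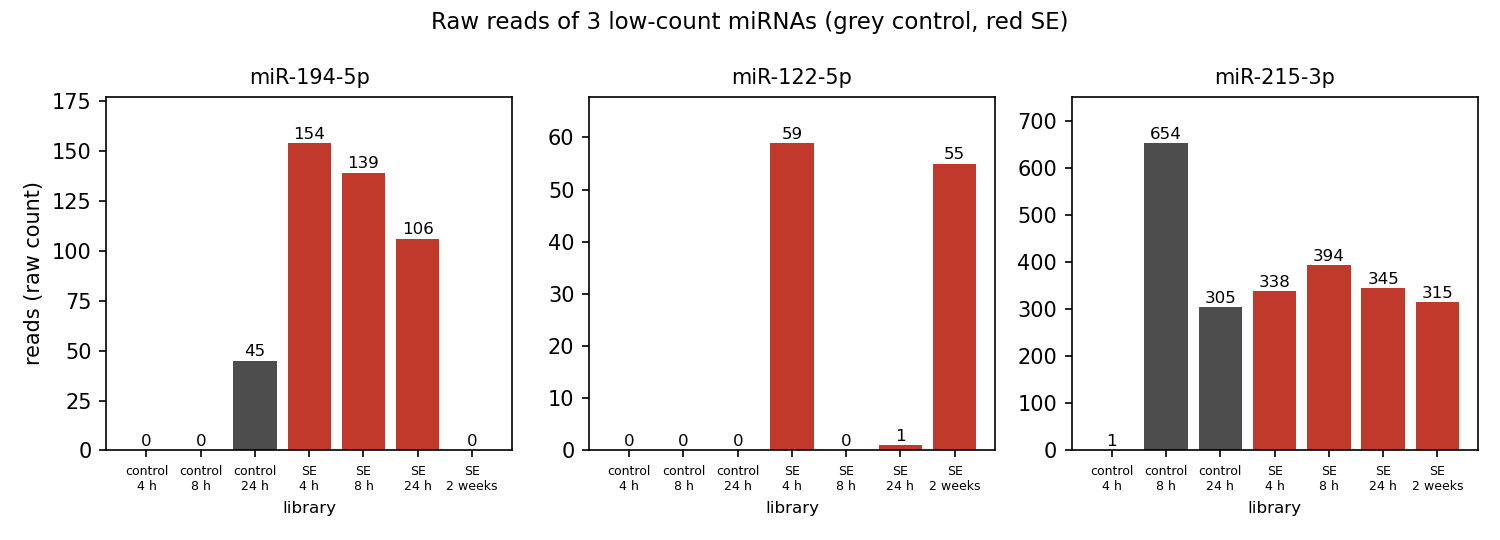
Raw reads of miR-194-5p, miR-122-5p and miR-215-3p in each library (grey controls, red SE; each panel has its own axis from 0). miR-194-5p has 106 to 154 reads in acute SE and 0, 0 and 45 in controls, miR-122-5p has 59 and 55 reads in the earliest and the latest SE library, and miR-215-3p is at 1 read in control 4 h and at 305 to 654 elsewhere.

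The opposite arms of the hairpins were rarer than the members. miR-215-3p, the other arm of the miR-215 hairpin, had 1, 654 and 305 reads in the controls (4 h, then 8 h, then 24 h), and 338, 394, 345 and 315 in the SE libraries from the earliest to the latest. Its 4 h difference was called (46.1-fold higher with the 4 h control set to 3 reads) and rests on that control with its 1 read. In SE 4 h its level, 79.4 CPM, lay between those of the 24 h control (77.3 CPM) and the 8 h control (152 CPM). Its 24 h difference (log2 0.67) was also called, and those at 8 h (-0.49) and 2 weeks (0.40) were not. Outside control 4 h it amounted to 0.833% to 1.79% of the reads of miR-215-5p.

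The remaining partners were seen in few libraries. miR-192-3p had 63 reads in control 8 h and 0 in the other 6, and miR-194-1-3p had 56 in control 24 h, 40 in SE 24 h and 0 elsewhere. miR-194-2-3p and miR-375-5p had no row.

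Pattern likeness was described by Pearson's r of log2 levels over the 7 libraries, which share scaling and library quality, among 102 miRNAs. miR-192-5p was most like miR-30a-3p (0.93), miR-532-5p (0.91), miR-182-5p (0.88), miR-29a-3p (0.78) and miR-10a-5p (0.78). Its opposites were miR-1957a (-0.93), miR-2137 (-0.85) and miR-5112 (-0.82). The nearest, miR-30a-3p, had 59.7, 96.7 and 83.1 CPM in the controls (4 h, then 8 h, then 24 h), 154, 166 and 224 CPM in acute SE and 92.3 CPM at 2 weeks, so that it too was higher in each acute SE library.

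miR-215-5p was most like miR-19b-3p (0.82), miR-425-5p (0.80), miR-191-5p (0.80), miR-223-3p (0.79) and miR-128-3p (0.77), and least like miR-378a-3p (-0.96), let-7d-3p (-0.91) and miR-378c (-0.91). miR-375-3p was most like miR-141-3p (0.77), miR-23a-3p (0.67), miR-92b-3p (0.67), miR-107-3p (0.64) and miR-22-3p (0.60). It was least like let-7f-5p (-0.91), let-7g-5p (-0.88) and let-7a-5p (-0.85). Since miR-375-3p was high in SE 8 h alone, its r values depend strongly on that library. By Spearman's rank correlation the least alike were at -0.71, -0.57 and -0.46, and miR-92b-3p (0.89) came above miR-141-3p (0.64). Among themselves the members were not alike, with r of -0.090 for miR-192-5p and miR-215-5p, 0.54 for miR-192-5p and miR-375-3p and -0.25 for miR-215-5p and miR-375-3p.

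Other miRNAs of the same tissues gave a mixed picture, and the lists below include the members that belong to them. The study's supplementary list classes some of these miRNAs otherwise. There miR-192-5p, miR-215-5p and miR-10a-5p are ubiquitous, miR-148a-3p is under spleen and miR-101b-3p under brain. The shares of all tested miRNAs called (67.2%, 50%, 44.7% and 31.7% in order of time) are the background to each count, and nothing particular to a list is read from it. Of the liver list, 5 of 8 were tested at each time. At 4 h 3 were called higher and 0 lower, namely miR-192-5p, miR-148a-3p (log2 1.00) and miR-101b-3p (0.61), with a list median of 0.61 against -0.057 over all tested. At 8 h 1 was called higher (miR-192-5p), at 24 h 0, and at 2 weeks 1 (miR-148a-3p, 0.67), with 0 lower each time. The list medians in these 3 comparisons were 0.24, 0.43 and 0.030, against 0.23, 0.035 and 0.0093 over all tested. The members of this list that the study's own list places under liver, miR-30d-5p and miR-92a-3p, were called at no time. In order of time miR-30d-5p differed by 0.42, 0.015, -0.11 and 0.0093 on the log2 scale. For miR-92a-3p the values were -0.56, -0.18, -0.34 and -0.079.

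Of the gut epithelium list, 4 of 9 were tested in each acute comparison and 3 at 2 weeks. At 4 h 1 was called higher (miR-192-5p) and 1 lower (miR-429-3p of the epithelial miR-200 family, log2 -2.89). At 8 h 2 were called higher (miR-192-5p and miR-429-3p, 1.38) and at 24 h 2 were called higher (miR-429-3p and miR-141-3p, 0.83), with 0 lower at either time. At 24 h the call of miR-429-3p rests on 2 reads in the control. At 2 weeks 0 were called. The list medians, in order of time, were -0.016, 0.61, 0.67 and 0.077, against -0.057, 0.23, 0.035 and 0.0093 over all tested.

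The study's own digestive list, which was drawn up with these samples in view and is not independent evidence, holds miR-375-3p and 6 others. At 4 h 2 of 7 tested were called higher (miR-152-3p, log2 2.31, and miR-151-5p, 0.85) and 1 lower (miR-139-3p, with 95 reads in control 4 h and 0 in all the other libraries). At 8 h 3 of 6 were called higher, namely miR-375-3p, miR-152-3p (0.95) and miR-151-5p (0.86). At 24 h 1 of 6 was called higher (miR-152-3p, 0.94) and at 2 weeks 0 of 6, with 0 lower at these times. The 3 of 6 called at 8 h equal the share of all tested, 50%. The list medians, in order of time, were 0.21, 0.65, 0.23 and 0.042.

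Of the kidney list, which also holds miR-192-5p and miR-194-5p, 2 of 5 tested were called higher at 4 h (miR-192-5p and miR-10a-5p, log2 1.33) and 2 lower (miR-204-5p, -1.37, and miR-205-5p, -0.80). At 8 h 4 of 5 were called higher (miR-192-5p, miR-10a-5p 0.80, miR-204-5p 1.77 and miR-205-5p 1.44) and 0 lower, where 54 of all 154 tested were called higher and 23 lower. At 24 h 1 of 4 was called lower (miR-205-5p, -2.08). At 2 weeks 2 of 4 were called lower (miR-205-5p, -1.42, and miR-30c-5p, -0.64), with 0 higher at both of these times. The list medians, in order of time, were -0.12, 0.80, 0.0080 and -0.28.

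Some markers of other cell types were also called at 8 h, when miR-192-5p and miR-375-3p were called. Of the muscle list 2 of 2 tested were called higher (miR-133a-3p, log2 0.86, and miR-133b-3p, 2.88), and of the neuron list 2 of 3 (miR-9-5p, 1.60, and miR-127-3p, 2.76). The third, miR-128-3p, was at -0.28 and not called, and miR-124-3p had 0 reads in both 8 h libraries. At 4 h the neuron list had 0 called higher and 1 lower, and the muscle list 1 higher and 0 lower. At 24 h 1 of the neuron list and 2 of the muscle list were called higher, with 0 lower. In summed level the muscle list, with 3 of 7 in the table, stood at 117 to 945 CPM in control and 120 to 1562 CPM in SE libraries, and the neuron list at 1594 to 2317 CPM and 1870 to 2188 CPM, so that both groups overlapped. Of the endocrine and pancreas list 2 of 6 were tested, and at 8 h 1 was called, miR-375-3p itself. Leukocyte and platelet markers had 0 of 4 called at 8 h, and red blood cell markers 0 of 4 higher and 1 lower. At 4 h both of these lists had 2 of 4 called higher and 0 lower, where 67.2% of all tested were called. The red blood cell calls (miR-144-3p and miR-144-5p) rest on 0 and 1 reads in control 4 h. At 24 h, with 44.7% of all tested called, red blood cell markers had 2 of 4 higher (miR-486b-5p and miR-144-5p, each log2 0.80) and 0 lower. Leukocyte and platelet markers then had 0 of 4 higher and 1 lower. The part of these cell types in the levels of the members was not tested.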

How the data were processed

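RNA bound to Ago2 in plasma was extracted and sequenced by the authors with a TruSeq small RNA kit. Per the study's methods, Chimera trimmed and size-selected reads and aligned them to mouse miRBase V21 with up to 2 mismatches; the version of Chimera is not given in the sources used here. The values used were the raw counts deposited by the authors, whole reads per miRNA, not normalized and without molecular identifiers. Groups came from the labels, with 1 pool of 10 mice each. Total counts of 2043220 to 5405357 per library set the counting precision alone, not the spread between pools.

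TMM over all 7 libraries, the exact test at BCV 0.1 (2 libraries) and the quasi-likelihood test (3 against 3) were run in edgeR 4.0.16 (R 4.3.3) on all miRNAs, with a filter of 50 CPM in either library (in 3 of the 6 for the quasi-likelihood test), and DESeq2 1.42.0 as an alternative. Fold changes used a prior count of 0.125. Permutation tests used log2(CPM + 1). All members present, their opposite arms, the 5 most and 3 least alike miRNAs, the 4 neighbours in abundance and list members were named. Members, lists and tests were chosen with earlier results of these data known. Labels share no replicate numbers beyond the time-point, which served as a block in an alternative. Sequences and coordinates were from RefSeq, gene overlaps from GENCODE vM21, both GRCm38. Figures were drawn with matplotlib 3.10.9.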

Additional observations from a re-analysis of the deposited data

Results flagged for a closer look

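Among the 4 SE libraries, the level of miR-375-3p at 8 h (5758 CPM) lay far from the nearest of the others (1385 CPM), the gap being 0.912 of the whole range, above the critical value of Dixon's test for 4 samples. By the same measure miR-194-5p at 2 weeks, at 0 CPM, lay apart from the 3 acute SE libraries (lowest 36.2 CPM; gap 0.948 of the range). Chance flags about 1 in 20 groups, and 5 members were examined. The 4 SE libraries are from different times, so that neither gap is a spread between replicates.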

How the results depend on the processing

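With 1 pool per group no value has a replicate error. Depth limits miR-194-5p (0 to 154 reads) and miR-122-5p (0 to 59 reads). Of 223 recomputed values, 185 kept their direction and side of the threshold. Some could not change side, since a permutation test with 1 library left out cannot reach a p below 0.05 here. The tally is therefore not a measure of robustness. miR-192-5p was called neither at 4 h nor at 8 h with a BCV of 0.4 (0.78 and 0.74) or a BCV estimated from the controls (same values), which was 1.11 over the 184 miRNAs with 50 CPM in any control and 0.360 over the 106 with 50 CPM in all 3 (the latter added after seeing the data), nor on library sizes without miR-486b-5p (0.23 and 0.45). At 4 h it fell to 0.57 against the 8 h and 24 h controls together, added after seeing the data. miR-375-3p at 8 h (2.39) was not called at 1.11 and was called at 0.360 and 0.4. At 24 h miR-192-5p was -0.10 by library size alone and 0.64, called, against the 3 controls together. The cause of these changes was not tested, beyond the larger variance that the BCV settings assume.

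Without miR-486b-5p in the library sizes, miR-215-5p at 4 h became -0.68 and miR-375-3p -0.90, both called, while miR-215-5p at 24 h turned to -0.11 and at 2 weeks to -0.064, and miR-192-5p at 2 weeks to -0.0072. By library size alone miR-215-5p at 24 h turned to -0.57 and miR-375-3p to -0.12, and miR-375-3p at 2 weeks to 0.042. With TMM over the 2 libraries miR-215-5p at 24 h turned to -0.012. miR-375-3p at 4 h turned to 0.036 against the 3 controls together and to 0.26 against the 8 h and 24 h controls, and at 2 weeks was -0.72, called, against control 4 h. The number of members called at 4 h was 0 rather than 1, and at 8 h 1 rather than 2, with BCV 0.4 or at 2-fold.

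Over 3 against 3 libraries no member passed under any alternative; with time-point as a replicate block the adjusted p of miR-192-5p was 0.154 in edgeR (log2 0.68), 20 miRNAs had an unadjusted p below 0.05 and 0 were called. Without the filter 3 miRNAs were called and with the 2-week library 1, neither time a member. Leaving out 1 library gave 0.61 to 0.74 for miR-192-5p, -0.14 to 0.063 for miR-215-5p (0.013 with the 2-week library) and 0.11 to 1.55 for miR-375-3p, lowest without SE 8 h and highest without SE 4 h. In the permutation comparison of 4 against 3 the leave-one-out ranges were 0.49 to 0.68, -0.047 to 0.087 and -0.012 to 0.85. There miR-215-5p turned to -0.15 by library size, -0.048 by DESeq2 factors and -0.037 without the 2-week library. The log2 ratio of miR-192-5p to miR-215-5p ranged from 0.64 to 0.84 with 1 library left out and was 0.72 with the block.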
